A study of Mus musculus with 6 samples.

Results

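Transcripts of the mitochondrial respiratory chain were followed in mouse thoracic aorta across a transgene that inhibits CaMKII in smooth muscle and an infusion of angiotensin II. The set holds 39 nuclear genes that were listed by name. It has 19 subunits of complex I, 4 of complex II, 6 of complex III with cytochrome c, 5 of complex IV and 5 of complex V. Every array probe annotated to these genes was taken, 58 of the 45281 probes, and kept where its detection p was under 0.01 on at least 2 of the 6 arrays. This left 49 probes for 36 genes, among 9837 genes measured in all. Where a gene had several probes left, which was so for 10 of them, the brightest stood for it, and all 36 of these probes were detected on all 6 arrays. The genes without a measured probe were Ndufs1, Sdha and Uqcrfs1. The nearest probe outside the detection limit was one of Uqcrfs1, with a lowest detection p of 0.0118 and log2 signals of 4.61 to 5.62, and just inside it were dim further probes of Atp5a1 and Cycs, detected on 4 arrays with signals of 4.96 to 6.17 and 5.14 to 6.16.

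The TG mice, named SM-CaMKIIN, express the peptide CaMKIIN, an inhibitor of the calcium-activated kinase CaMKII, in their smooth muscle, and the WT mice were littermates without it. The labels give a C57 Bl/6 background, do not name the promoter that drives the transgene and do not say how many founder lines were used. From 12 weeks of age, minipumps delivered angiotensin II (Ang-II), a hormone that constricts vessels and raises blood pressure, at 1.25 ug/kg/min in 0.9% saline, or 0.9% saline alone, for 14 days. There were 2 arrays of TG Ang-II, 2 of WT Ang-II, 1 of TG saline and 1 of WT saline aorta, each group made from the pooled RNA of 5 mice. The titles call the Ang-II arrays biological replicates, but no label says that the arrays of a group came from separate mice, so p-values rest on an array-to-array spread that may be technical. Each saline group has a single array, whose spread was taken from the Ang-II pairs, and so small a number of arrays limits precision throughout. Values are log2 signals after background correction and quantile normalization, and a difference of 1 is a doubling of the signal on that scale. A gene rose or fell where limma, fitted to all probes kept, gave a Benjamini-Hochberg adjusted p under 0.05 over them. Transcript levels are compared only within a probe.

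The respiratory chain passes electrons from NADH, through complex I, and from succinate, through complex II, to ubiquinone, complex III, cytochrome c and complex IV, where oxygen is reduced. Complexes I, III and IV pump protons across the inner mitochondrial membrane, and complex V, the ATP synthase, uses that gradient to make ATP. Most subunits are nuclear-encoded, and their genes are known targets of the factors NRF1, GABPA, YY1 and the oestrogen-related receptors, with the PGC-1 proteins as coactivators. Vascular smooth muscle relies on both glycolysis and respiration, while heart muscle and brown fat, which surrounds the thoracic aorta of mice, are rich in mitochondria.

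The promoters of the members were searched for short core sequences of these factors, on both strands. RefSeq's promoter table of build GRCm38.p6, with 250 bases before and 50 after each gene's start, matched 29 of the 39 genes and gave 32 promoters for them. The NRF1 core lay in the promoters of 7 genes, 25.0% of the members' promoters against 4.6% of all 32851 promoters of this length. The YY1 core AANATGGC lay in those of 9 genes, 28.1% of the promoters against 6.05% of all. The GABPA core CCGGAAG was in those of 4 genes, 12.5% of the promoters against 8.86% of all and 11.6% of those of coding genes, and the receptor site TCAAGGTCA in 1, 3.12% against 0.423%. No match of one motif overlapped that of another, and 18 of the 29 genes had at least 1. A match describes these letters only, and says nothing of binding. The 4 promoters printed are those of Ndufa10, the member that rose in WT aorta and has none of the cores in this window, of Uqcrc1 with 2 NRF1 cores, of Sdhd with an NRF1, a GABPA and a receptor core, and of Cox7b with a YY1 core. They lie at chr1:92473709-92474008 on the minus strand (Ndufa10), chr9:108936398-108936697 on the plus strand (Uqcrc1), chr9:50603800-50604099 on the minus strand (Sdhd) and chrX:106015450-106015749 on the plus strand (Cox7b). Capitals mark the matched cores, and a core on the other strand appears as its reverse complement.
Ndufa10: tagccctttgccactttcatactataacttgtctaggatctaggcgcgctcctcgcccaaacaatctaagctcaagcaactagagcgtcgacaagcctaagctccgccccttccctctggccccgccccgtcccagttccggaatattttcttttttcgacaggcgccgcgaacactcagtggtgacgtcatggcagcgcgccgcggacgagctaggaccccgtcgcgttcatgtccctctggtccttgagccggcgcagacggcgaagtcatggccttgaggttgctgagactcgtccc
Uqcrc1: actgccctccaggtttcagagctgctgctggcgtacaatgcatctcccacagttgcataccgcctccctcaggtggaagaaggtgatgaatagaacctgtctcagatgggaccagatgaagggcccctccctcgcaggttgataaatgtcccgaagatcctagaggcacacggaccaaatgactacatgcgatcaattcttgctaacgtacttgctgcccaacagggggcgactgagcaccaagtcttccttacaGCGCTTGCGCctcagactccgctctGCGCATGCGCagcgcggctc
Sdhd: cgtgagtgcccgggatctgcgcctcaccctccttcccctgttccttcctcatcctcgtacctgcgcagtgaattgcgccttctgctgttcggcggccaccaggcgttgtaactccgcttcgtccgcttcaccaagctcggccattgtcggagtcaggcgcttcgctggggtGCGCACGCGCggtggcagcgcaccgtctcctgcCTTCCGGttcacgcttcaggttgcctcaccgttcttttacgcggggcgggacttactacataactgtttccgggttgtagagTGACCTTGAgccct
Cox7b: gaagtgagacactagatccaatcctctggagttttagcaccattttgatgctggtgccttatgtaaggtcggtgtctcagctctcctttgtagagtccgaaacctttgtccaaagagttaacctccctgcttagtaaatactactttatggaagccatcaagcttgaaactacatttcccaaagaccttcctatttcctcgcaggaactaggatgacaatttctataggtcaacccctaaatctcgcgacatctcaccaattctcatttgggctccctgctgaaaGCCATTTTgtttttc

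Across all 36 members, signals in WT aorta were mostly higher with Ang-II than with saline, and in TG aorta they were not. The median log2 difference of the members between Ang-II and saline was -0.09 in TG aorta and 0.37 in WT aorta, against -0.06 and -0.05 for all genes. With the mean of all kept probes of a gene these medians were -0.10 in TG and 0.24 in WT. On the single arrays the members' median lay at -0.06 and -0.10 relative to saline on the TG Ang-II arrays, and at 0.33 and 0.32 on the WT Ang-II arrays. In TG aorta 11 members were higher with Ang-II and 25 lower, while in WT aorta 31 were higher and 5 lower. Of all 9837 genes, 4195 were higher and 5642 lower in TG, and 4428 higher and 5409 lower in WT. With arrays scaled by their median instead, the median of all genes shifted to -0.32 in TG and -0.33 in WT, and relative to it the members' median was -0.08 in TG and 0.36 in WT. In that scaling 2 of 36 members were higher with Ang-II in TG aorta and 19 in WT aorta. Of all 9837 genes 2207 were higher in TG and 2269 in WT.

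**Figure D1:**
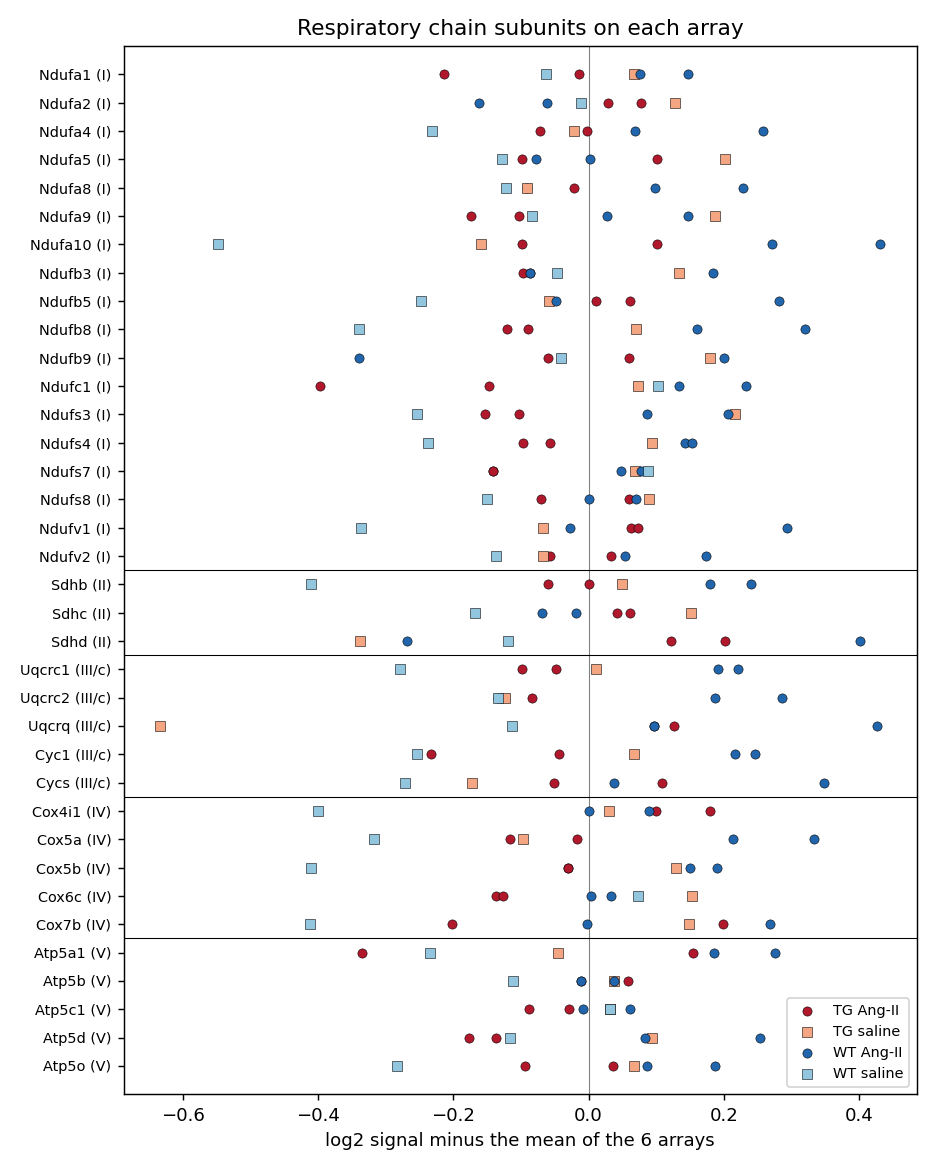
Log2 signal of each of the 36 measured subunits on each array, minus the mean of that gene over the 6 arrays (x axis, log2), with the complex in brackets (y axis). Circles are Ang-II arrays and squares saline arrays, TG in red and WT in blue. The WT saline square is the lowest of the 6 points for 23 subunits.

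Few single members passed the test. In TG aorta 0 of 36 rose and 0 fell with Ang-II by limma's adjusted p, where 5.23% of all genes rose and 1.56% fell, 6.78% in all. At an unadjusted p under 0.05, 1 member, Uqcrq, was higher in TG and 0 lower, against 12.1% and 10.6% of all genes. In WT aorta 1 of 36, Ndufa10, rose and 0 fell, where 6.09% of all genes rose and 2.63% fell, 8.72% in all. At an unadjusted p under 0.05, 12 members were higher in WT aorta with Ang-II and 0 lower, where 14.2% of all genes were higher and 12.6% lower. Both WT Ang-II arrays lay above the WT saline array for 29 of 36 members (36.8% of all genes) and both below it for 3 (45.1%). Both TG Ang-II arrays lay above the TG saline array for 9 members (33.5% of all genes) and below it for 21 (46.1%). For 15 members the TG arrays lay below their saline array and the WT arrays above theirs, a pattern seen in 9.25% of all genes.

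All comparisons with WT saline rest on 1 array, and that array was the lowest of the 6 for 23 members, against 19.8% of all genes. Averaged over genotypes, Ndufa10 and Uqcrq rose with Ang-II and no member fell, where 10.4% of all genes rose and 7.01% fell, 17.5% in all. At an unadjusted p under 0.05, 5 members were higher in the average and 0 lower, against 16.6% and 17.1% of all genes. The members' median in that average was 0.16, against -0.06 for all genes, and with the mean of all kept probes of a gene it was 0.05. Under median scaling it was -0.15, against -0.32 for all genes, with 0 members called higher and 6 lower. That scaling called 856 of 9837 genes higher and 4077 lower. The arrays of a group differed little for these genes: the median difference between the arrays was 0.02 in TG Ang-II and 0.04 in WT Ang-II aorta. Between arrays of a group the SD of the differences over members was 0.14 in TG and 0.21 in WT, against 0.28 and 0.26 for all genes. The members' probes were brighter, with array means of 11.35 to 11.67 against 8.65 to 8.67 for all genes. Genes of like brightness were not compared. The widest gaps were 0.49 for Atp5a1 between the TG arrays and 0.67 for Sdhd between the WT arrays.

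**Figure D2:**
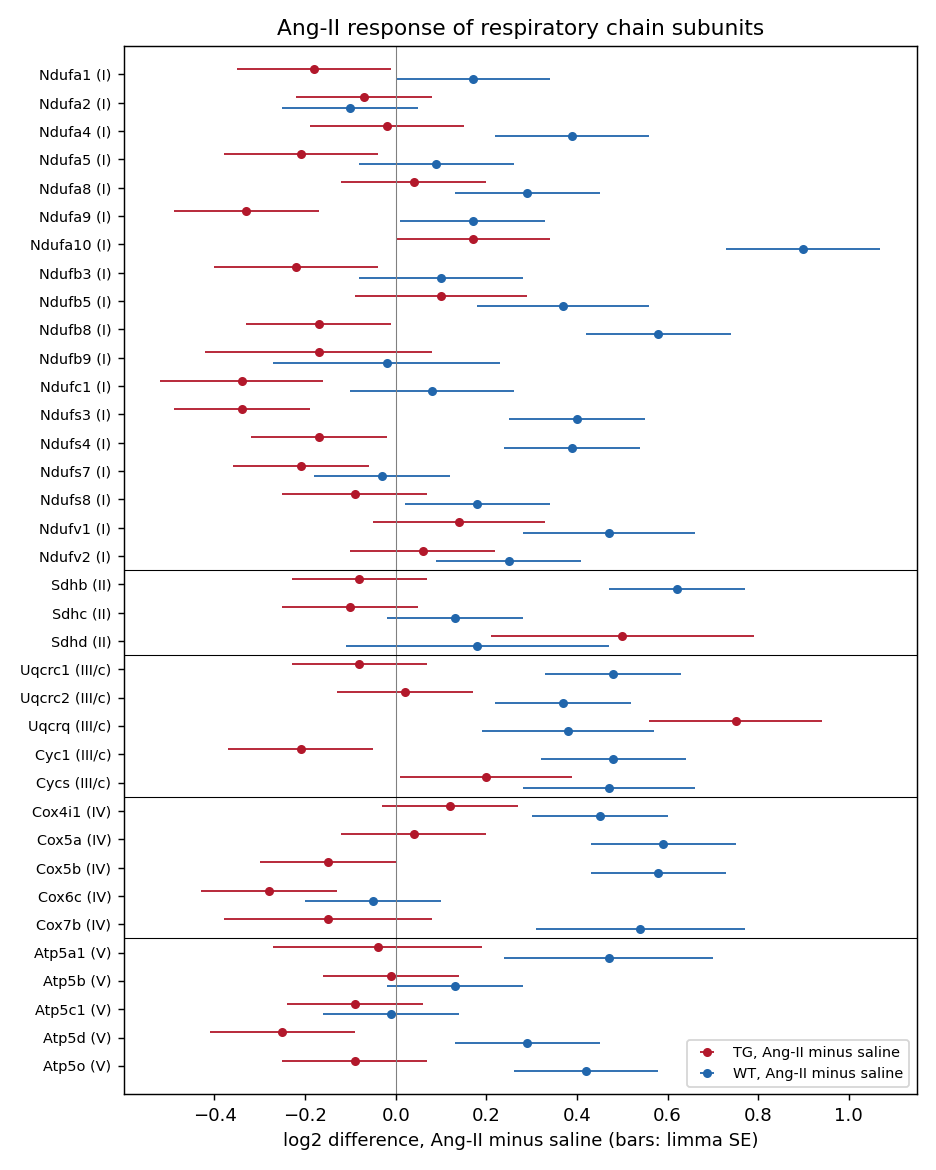
Log2 difference between Ang-II and saline (x axis) for each measured subunit (y axis), in TG (red) and WT (blue) aorta, with bars of 1 limma standard error. WT points lie right of 0 for 31 subunits and TG points for 11, and Ndufa10 in WT is the only point that passed the test.

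Complex I had 18 measured members, and its median response was -0.17 in TG and 0.22 in WT aorta. Ndufa10, an accessory subunit of the membrane arm of complex I, had log2 signals of 11.76 and 11.56 in TG Ang-II, 12.09 and 11.93 in WT Ang-II, 11.50 in TG saline and 11.11 in WT saline aorta. Both WT Ang-II arrays were above all other arrays, and WT saline was the lowest. Its difference between Ang-II and saline was 0.17 ± 0.17 (SE) in TG, which did not pass (limma adjusted p = 0.61). In WT it was 0.90 ± 0.17, or 1.87-fold, with a limma adjusted p of 0.0364, and both Ang-II arrays were higher. The WT call was lost without either WT Ang-II array, at adjusted p of 0.131 and 0.105, under median scaling at 0.0591 and without a detection filter at 0.0737. In the average of both genotypes it rose by 0.53 ± 0.12, with a limma adjusted p of 0.0357 and all 4 Ang-II arrays above their saline array. That call was lost without the first or the second WT array (0.0932 and 0.0713), without the first TG array (0.0658), under median scaling (0.18), without a detection filter (0.0674) and in an additive model (0.123).

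Other complex I members spanned a range on both sides of 0. Ndufa2, an accessory subunit of the NADH-oxidising arm, had the lowest WT response, -0.10 ± 0.15 in WT with an adjusted p of 0.709 by limma. Its signals were 12.20 and 12.15 in TG Ang-II, 11.96 and 12.06 in WT Ang-II, 12.25 in TG saline and 12.11 in WT saline aorta. Unlike most members, it was brighter on both TG than on both WT Ang-II arrays. Ndufc1, a small accessory subunit of the membrane arm, gave 11.30 and 11.05 in TG Ang-II, 11.68 and 11.58 in WT Ang-II, 11.52 in TG saline and 11.55 in WT saline aorta. On this probe, the brightest, the TG Ang-II arrays stood below the other 4, which lay close together. Its response was -0.34 ± 0.18 in TG and 0.08 ± 0.18 in WT, and neither passed. A second probe of Ndufc1 had responses of -0.11 ± 0.15 in TG and 0.31 ± 0.15 in WT. On that probe WT saline was the lowest array, at 11.01, with TG Ang-II at 11.06 and 11.05. Ndufb8, an accessory membrane subunit often used on blots as a sign of assembled complex I, read 12.99 and 12.96 in TG Ang-II, 13.40 and 13.24 in WT Ang-II, 13.15 in TG saline and 12.74 in WT saline aorta. Its WT response was 0.58 ± 0.16 with an adjusted p of 0.0801 by limma, just short of the threshold, and its TG response was -0.17 ± 0.16. A dimmer second probe of Ndufb8 went the other way in WT, at -0.18. Ndufa5, an accessory subunit of the matrix arm, also had probes that disagreed in WT, with 0.09 ± 0.17 from the brightest and -0.46 ± 0.33 from the other. The brightest read 11.36 and 11.16 in TG Ang-II, 11.26 and 11.18 in WT Ang-II, 11.46 in TG saline and 11.13 in WT saline aorta, and the arrays of all groups lay close together.

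The catalytic core of complex I was measured by 5 members. Ndufs3, of the arm that reaches into the matrix, had responses of -0.34 ± 0.15 in TG and 0.40 ± 0.15 in WT. Ndufv1, which carries the FMN that takes electrons from NADH, had 0.14 ± 0.19 in TG and 0.47 ± 0.19 in WT. Ndufs7 and Ndufs8, which hold iron-sulfur clusters near the ubiquinone site, had -0.21 and -0.09 in TG, against -0.03 and 0.18 in WT. None of these passed the test. Ndufv2, the partner of Ndufv1, had 0.06 in TG and 0.25 in WT, and Ndufs4, an accessory subunit needed for the assembly of the NADH module, -0.17 in TG and 0.39 in WT. The remaining accessory subunits, Ndufa1, Ndufa4, Ndufa8, Ndufa9, Ndufb3, Ndufb5 and Ndufb9, had responses from -0.33 to 0.10 in TG and from -0.02 to 0.39 in WT. Ndufa4 was named for complex I, and its protein is now counted with complex IV.

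Complex II, succinate dehydrogenase, links the chain to the tricarboxylic acid cycle, and its catalytic flavoprotein gene Sdha was not measured. Its members differed in direction. Sdhb, the iron-sulfur subunit, had signals of 10.16 and 10.10 in TG Ang-II, 10.34 and 10.40 in WT Ang-II, 10.21 in TG saline and 9.75 in WT saline aorta. WT saline stood apart below the other 5 arrays. Its response was -0.08 ± 0.15 in TG and 0.62 ± 0.15 in WT, and the WT value missed the threshold at a limma adjusted p of 0.0605. Sdhc, a membrane anchor, had responses of -0.10 ± 0.15 in TG and 0.13 ± 0.15 in WT, and the WT value turned to -0.20 under median scaling. Its signals were 12.06 and 12.08 in TG Ang-II, 12.00 and 11.95 in WT Ang-II, 12.17 in TG saline and 11.85 in WT saline aorta. Sdhd, the other anchor, gave 9.59 and 9.67 in TG Ang-II, 9.20 and 9.87 in WT Ang-II, 9.13 in TG saline and 9.35 in WT saline aorta. The WT Ang-II arrays lay on either side of WT saline, so the WT response of 0.18 ± 0.29 rests on arrays that disagree. In TG the response was 0.50 ± 0.29, with an adjusted p of 0.338 by limma.

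Complex III and cytochrome c had 5 measured members, with median responses of 0.02 in TG and 0.47 in WT aorta. All 5 lay above saline on both WT Ang-II arrays, where 36.8% of all genes did. Cyc1, the cytochrome c1 subunit that hands electrons to cytochrome c, read 10.81 and 10.62 in TG Ang-II, 11.07 and 11.10 in WT Ang-II, 10.92 in TG saline and 10.60 in WT saline aorta. The WT Ang-II arrays were the highest, and both TG Ang-II arrays were below TG saline. Its response was -0.21 ± 0.16 in TG and 0.48 ± 0.16 in WT (limma adjusted p = 0.483 and 0.128). Uqcrc1 and Uqcrc2, the core proteins, had responses of -0.08 and 0.02 in TG, against 0.48 and 0.37 in WT. Uqcrc2 gave 12.46 and 12.51 in TG Ang-II, 12.88 and 12.78 in WT Ang-II, 12.47 in TG saline and 12.46 in WT saline aorta, so that the WT Ang-II arrays alone stood apart. Cycs, the electron carrier cytochrome c, gave 11.73 and 11.57 in TG Ang-II, 11.97 and 11.66 in WT Ang-II, 11.45 in TG saline and 11.35 in WT saline aorta on its brightest probe. Every Ang-II array was above both saline arrays, for responses of 0.20 ± 0.19 in TG and 0.47 ± 0.19 in WT, while a dim probe of it, detected on 4 arrays, gave -0.75 in TG.

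Uqcrq, a small subunit of complex III, was measured by a probe designed on a cDNA clone, while the probe on its RefSeq transcript was not detected on any array. The clone's probe gave 7.03 and 7.06 in TG Ang-II, 7.36 and 7.03 in WT Ang-II, 6.30 in TG saline and 6.82 in WT saline aorta. The TG saline array was the lowest by far. The TG response was 0.75 ± 0.19 with an adjusted p of 0.0795 by limma, the highest of any member in TG, and the WT response was 0.38 ± 0.19. In the average of both genotypes it rose by 0.56 ± 0.14, with a limma adjusted p of 0.0393 and all 4 Ang-II arrays above their saline array. That call was lost without the first WT array (0.0796), the first TG array (0.0616) or the second TG array (0.0645), under median scaling (0.063), without a detection filter (0.0823) and in an additive model (0.0652).

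Complex IV, cytochrome c oxidase, had the highest median response of the complexes in WT aorta, 0.54, and -0.15 in TG aorta. Cox5a, a subunit that faces the matrix, had signals of 12.48 and 12.38 in TG Ang-II, 12.83 and 12.71 in WT Ang-II, 12.40 in TG saline and 12.18 in WT saline aorta. The WT Ang-II arrays were above all others. Its response was 0.04 ± 0.16 in TG and 0.59 ± 0.16 in WT (limma adjusted p = 0.914 and 0.0777). Cox5b, which binds zinc, had -0.15 ± 0.15 in TG and 0.58 ± 0.15 in WT, and its second probe moved the same way, with 9.29 and 9.20 in TG Ang-II, 9.57 and 9.54 in WT Ang-II, 9.48 in TG saline and 8.98 in WT saline aorta. WT saline was the lowest array on both probes. Cox4i1, the common form of the largest nuclear-encoded subunit, read 13.96 and 13.88 in TG Ang-II, 13.87 and 13.78 in WT Ang-II, 13.81 in TG saline and 13.38 in WT saline aorta. Its response was 0.12 ± 0.15 in TG, turning to -0.15 under median scaling, and 0.45 ± 0.15 in WT. Cox6c, a small subunit in the membrane, was the one member of complex IV below saline in WT. It gave 12.79 and 12.80 in TG Ang-II, 12.96 and 12.93 in WT Ang-II, 13.08 in TG saline and 13.00 in WT saline aorta, for responses of -0.28 ± 0.15 in TG and -0.05 ± 0.15 in WT. Cox7b, the small subunit with the YY1 core in its promoter, had -0.15 ± 0.23 in TG and 0.54 ± 0.23 in WT.

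Complex V had fitted responses below 0 for all 5 members in TG aorta, from -0.25 to -0.01, where 5642 of 9837 genes were lower. Their median was -0.09, against -0.06 for all genes. Both TG Ang-II arrays lay below TG saline for 3 of 5, near the share of all genes, 46.1%. In WT aorta the responses ran from -0.01 to 0.47, with 0 calls in either genotype. Atp5a1, the alpha subunit of the catalytic head, gave 10.94 and 11.43 in TG Ang-II, 11.46 and 11.55 in WT Ang-II, 11.23 in TG saline and 11.04 in WT saline aorta. Its TG Ang-II arrays lay on either side of TG saline, and its response was -0.04 ± 0.23 in TG and 0.47 ± 0.23 in WT. A dim second probe of Atp5a1, on a cDNA clone and detected on 4 arrays, gave 0.70 in TG. Atp5b, the catalytic beta subunit, varied little and read 14.34 and 14.41 in TG Ang-II, 14.39 and 14.34 in WT Ang-II, 14.39 in TG saline and 14.24 in WT saline aorta. Atp5c1, the central gamma shaft, varied little as well, with 12.38 and 12.32 in TG Ang-II, 12.47 and 12.40 in WT Ang-II, and 12.44 on each saline array. Its differences of -0.09 ± 0.15 in TG and -0.01 ± 0.15 in WT were within 1 standard error, and the WT value turned to 0.02 without the second WT array. Atp5d, the delta subunit of the central stalk, had 10.96 and 11.00 in TG Ang-II, 11.39 and 11.22 in WT Ang-II, 11.23 in TG saline and 11.02 in WT saline aorta. Both TG Ang-II arrays were the lowest and its TG response was -0.25 ± 0.16, against 0.29 ± 0.16 in WT. Atp5o, of the stalk that holds the head still, had -0.09 ± 0.16 in TG and 0.42 ± 0.16 in WT.

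Under Ang-II the members were mostly lower in TG than in WT aorta, with a median difference of -0.18 against 0.00 for all genes. Of 36 members 7 were higher and 29 lower in TG, where 4917 of 9837 genes were higher and 4920 lower. Limma's test called 0 members in either direction. Of all genes it called 3.02% higher and 2.33% lower in TG, 5.35% in all. At an unadjusted p under 0.05, 5 members were lower and 0 higher, where 10.8% of all genes were lower and 10.5% higher. These were Ndufc1 at -0.46 ± 0.14, Cyc1 at -0.37 ± 0.13, Uqcrc2 and Cox5a at -0.34 ± 0.13 each, and Ndufb8 at -0.34 ± 0.13, with adjusted p between 0.141 and 0.205. The second probe of Ndufc1 had -0.27 ± 0.12. Both TG Ang-II arrays lay below both WT Ang-II arrays for 22 members (26.5% of all genes) and above them for 3 (26.6%). By complex, the median TG minus WT difference was -0.20 for complex I, 0.09 for complex II, -0.28 for complex III with cytochrome c, -0.15 for complex IV and -0.17 for complex V. In complex V, Atp5d had -0.32 ± 0.13 and Atp5a1 -0.32 ± 0.19, and in complex II Sdhb had -0.24 ± 0.12, and none passed. Median scaling moved the median of all genes in this comparison to -0.12, and the members' median relative to it was -0.17.

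With saline, the difference between genotypes ran the other way, with a median of 0.22 in TG minus WT against 0.01 for all genes. TG saline was above WT saline for 31 of 36 members, where 51.9% of all genes were. None passed limma's test, which called 0.102% of all genes higher and 0.061% lower, 0.163% in all. There were 3 members, Cox5b at 0.54 ± 0.17, Sdhb at 0.46 ± 0.17 and Ndufs3 at 0.46 ± 0.18, that were higher at an unadjusted p under 0.05 and 0 lower, against 7.17% and 6.56% of all genes. With 1 array in each saline group, a difference between these arrays and one between genotypes cannot be told apart. The interaction, the TG response minus the WT response, had a median of -0.34 over the members, against -0.01 for all genes. It was below 0 for 33 of 36 members and for 5050 of 9837 genes. No member passed, where 0.722% of all genes were above and 0.539% below 0 by limma's adjusted p, 1.26% in all. At an unadjusted p under 0.05, 8 members were below 0 and 0 above, against 6.89% and 6.62% of all genes. Ndufb8 had -0.75 ± 0.22, Cox5b -0.74 ± 0.21, Ndufs3 -0.74 ± 0.22, Ndufa10 -0.73 ± 0.25 and Sdhb -0.70 ± 0.21, with adjusted p between 0.209 and 0.275. The members above 0 were Uqcrq at 0.36 ± 0.27, Sdhd at 0.32 ± 0.40 and Ndufa2 at 0.03 ± 0.22.

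The WT response of members with and without a motif in the promoter is given as a description, with no test. Its median was 0.24 for the 6 measured members with an NRF1 core and 0.39 for 21 without one, 0.29 and 0.37 for GABPA, and 0.18 and 0.39 for YY1. Sdhd, the only member with the receptor site, had 0.18. The median TG minus WT difference under Ang-II was -0.13 with an NRF1 core and -0.20 without, -0.14 and -0.20 for GABPA, and -0.20 in both sets for YY1.

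Other subunits of the same complexes, outside the member list, were examined beside the members. Of 29 measured, 0 rose and 0 fell in either genotype, with median responses of -0.11 in TG and 0.12 in WT. Cox6b1, of complex IV, had the highest WT response of them, 0.64 with a limma adjusted p of 0.0555, and Ndufa11 and Ndufb10, of complex I, the lowest, -0.32 each. Under Ang-II their median TG minus WT difference was 0.01. Under median scaling 0 of 29 were called in TG, 3 fell in WT and 11 fell in the average. Of all 9837 genes 1195 then fell in TG, 1965 in WT and 4077 in the average. Assembly factors, which build the complexes and are not part of them, had 0 rises and 1 fall of 27 in TG and none in WT. The one that fell was Ndufaf7, a methyltransferase needed for complex I assembly, by 0.85 ± 0.15 in TG with a limma adjusted p of 0.0304, and that call was lost without any 1 of the 4 Ang-II arrays (adjusted p up to 0.073) and without a detection filter (0.0507). Mitochondrial ribosomal proteins had no call among 21 in either genotype, with medians of -0.15 in TG and 0.07 in WT. The lowest was Mrps15 at -0.93 ± 0.28 in TG and -0.32 ± 0.28 in WT, and the highest in WT was Mrps5 at -0.34 ± 0.16 in TG and 0.58 ± 0.16 in WT.

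A list of subunit isoforms, not all of them particular to a tissue, had 7 measured genes. They were Cox6a1, Cox6a2, Cox7a1, Cox7a2, Cox7a2l, Cox8b and Cox6b2. Of these 2 rose in TG and 0 fell, and 3 rose and 1 fell in WT. The median responses, -0.19 in TG and 0.23 in WT, were the values of Cox6a1. Cox6a2, the form of subunit VIa in heart and skeletal muscle, gave 11.52 and 11.58 in TG Ang-II, 6.03 and 5.17 in WT Ang-II, 6.97 in TG saline and 8.05 in WT saline aorta. TG Ang-II arrays stood far above the rest, and 1 of the 2 WT Ang-II arrays detected it, so differences against WT Ang-II rest in part on a signal within background. It rose by 4.58 ± 0.35 in TG (limma adjusted p = 0.00471) and fell by 2.45 ± 0.35 in WT (0.0149, lost without a detection filter at 0.0573), and under Ang-II it was 5.95 ± 0.28 higher in TG (0.000546). Cox7a1, a form found in striated muscle and brown fat, read 11.22 and 11.14 in TG Ang-II, 11.45 and 11.38 in WT Ang-II, 10.41 in TG saline and 9.47 in WT saline aorta. It rose by 0.77 ± 0.15 in TG (0.0428) and by 1.94 ± 0.15 in WT (0.00422), and the TG call was lost without any 1 of the 4 Ang-II arrays, under median scaling, without a detection filter (adjusted p up to 0.106) and with the replicate number as a block (0.0503). Cox8b, of the same tissues, had 12.77 and 12.83 in TG Ang-II, 13.26 and 13.26 in WT Ang-II, 12.44 in TG saline and 11.43 in WT saline aorta. Its response was 0.36 ± 0.15 in TG, which did not pass, and it rose by 1.83 ± 0.15 in WT (0.00464). The interaction of Cox8b, -1.47 ± 0.21, passed at a limma adjusted p of 0.0481 and was lost without any 1 of the 4 Ang-II arrays (up to 0.179), without a detection filter (0.0868) and with the replicate number as a block (0.0723). Cox6b2, known as the testis form of subunit VIb, rose in WT by 0.75 ± 0.15 (0.0384), a call lost without either WT Ang-II array, under median scaling and without a detection filter (up to 0.132).

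**Figure D3:**
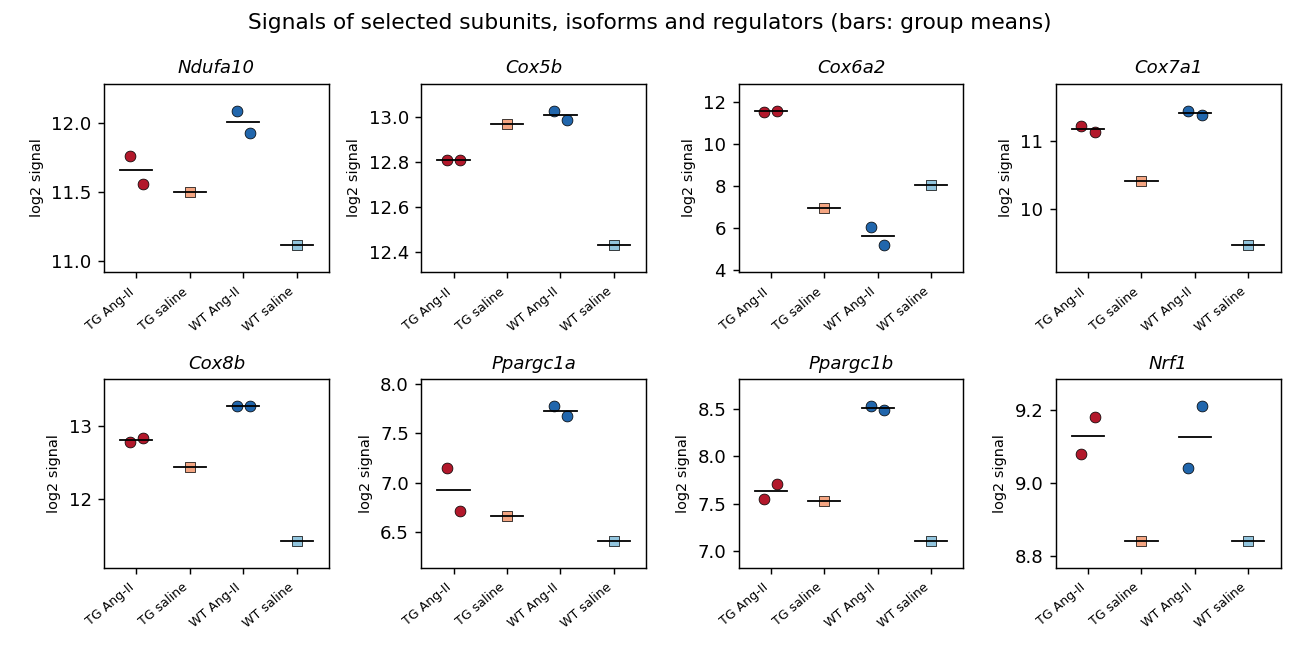
Log2 signal (y axes, each with its own range) of 8 genes in each group, with points for arrays and bars for group means, TG Ang-II and TG saline left of WT Ang-II and WT saline. Cox6a2 is highest on the TG Ang-II arrays at 11.52 and 11.58, while Cox8b, Ppargc1a and Ppargc1b are highest on the WT Ang-II arrays.

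Regulators of mitochondrial biogenesis were divided. Ppargc1a, the coactivator PGC-1alpha, gave 7.15 and 6.71 in TG Ang-II, 7.77 and 7.67 in WT Ang-II, 6.66 in TG saline and 6.41 in WT saline aorta. Its response was 0.26 ± 0.22 in TG, which did not pass, and it rose by 1.31 ± 0.22 in WT (limma adjusted p = 0.0248). Ppargc1b, its relative PGC-1beta, read 7.55 and 7.71 in TG Ang-II, 8.53 and 8.49 in WT Ang-II, 7.53 in TG saline and 7.10 in WT saline aorta. WT Ang-II arrays stood alone, with a response of 0.10 ± 0.16 in TG and a rise of 1.41 ± 0.16 in WT (0.00907). Both WT calls were lost without either WT Ang-II array, at adjusted p of up to 0.108 for Ppargc1a and 0.059 for Ppargc1b, and that of Ppargc1a also without a detection filter (0.0667). Under Ang-II, the TG minus WT difference of Ppargc1b was -0.88 ± 0.13 (0.0208), and Tfb1m, a mitochondrial rRNA methyltransferase, was higher in TG by 1.03 ± 0.20 (0.0489). The call of Ppargc1b was lost without either WT array or the first TG array (up to 0.142), and that of Tfb1m without any 1 of the 4 or without a detection filter (up to 0.217). Esrrg, an oestrogen-related receptor, was not well above background in WT saline and was at least 1.95-fold higher in WT Ang-II aorta (0.00872). This bound uses the lowest detected signal of the dimmer array. Other factors whose cores were searched did not pass in either genotype. Nrf1 had 0.29 ± 0.16 in each genotype, Gabpa -0.47 ± 0.29 in TG and -0.14 ± 0.29 in WT, and Esrra 0.12 ± 0.18 in TG and 0.28 ± 0.18 in WT. Yy1 was not measured. Tfam, which packages mitochondrial DNA, had -0.40 ± 0.18 in TG and 0.28 ± 0.18 in WT. In all, 0 of 12 regulators rose in TG and 3 in WT, and none fell.

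Fuel pathways that feed the chain were examined by the same lists. Of 14 genes of fatty acid oxidation, 0 rose in TG and 5 rose in WT, none fell, and the medians were 0.15 in TG and 0.51 in WT. They included Cpt1b, which admits fatty acids into mitochondria of muscle and brown fat, with a rise of 2.30 ± 0.16 in WT (limma adjusted p = 0.00391), and Acaa2, the last enzyme of the cycle, with 1.40 ± 0.25 (0.029). Etfb, which carries electrons from these enzymes, rose by 1.05 ± 0.15 (0.0149) and Cpt2 by 0.81 ± 0.15 (0.0322). Without either WT Ang-II array the calls of Etfb and Cpt2 were lost (up to 0.0797 and 0.12), and without the second one that of Acaa2 (0.0726). Without a detection filter those of Acaa2 (0.0799) and Cpt2 (0.0506) were lost, and that of Cpt2 also under median scaling (0.0629), while that of Cpt1b passed in all 13 alternatives. Under Ang-II all 14 were lower in TG than in WT, by a median of -0.32, and 0 passed, where 4920 of 9837 genes were lower. Of 16 genes of the tricarboxylic acid cycle and its entry, 0 rose in TG and 1 in WT, Pdhb of pyruvate dehydrogenase by 0.82 ± 0.16 (0.0346, up to 0.127 and lost without either WT array, under median scaling and without a detection filter), with medians of 0.03 in TG and 0.28 in WT. Of 12 glycolytic genes 0 fell in TG and 1 in WT, Hk1, which was not well above background with Ang-II and at least 1.67-fold higher in WT saline (0.0232, up to 0.104 and lost without either WT array and without background correction). The glycolytic medians were -0.22 in TG and -0.18 in WT. Of 11 genes for calcium uptake and carriers, 1, Ckmt2, the mitochondrial creatine kinase of striated muscle, rose at least 10.3-fold in TG (0.000561), and it fell in WT, where WT saline was at least 1.17-fold higher (0.0155, up to 0.0824 and lost without either WT array and without background correction).

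**Figure D4:**
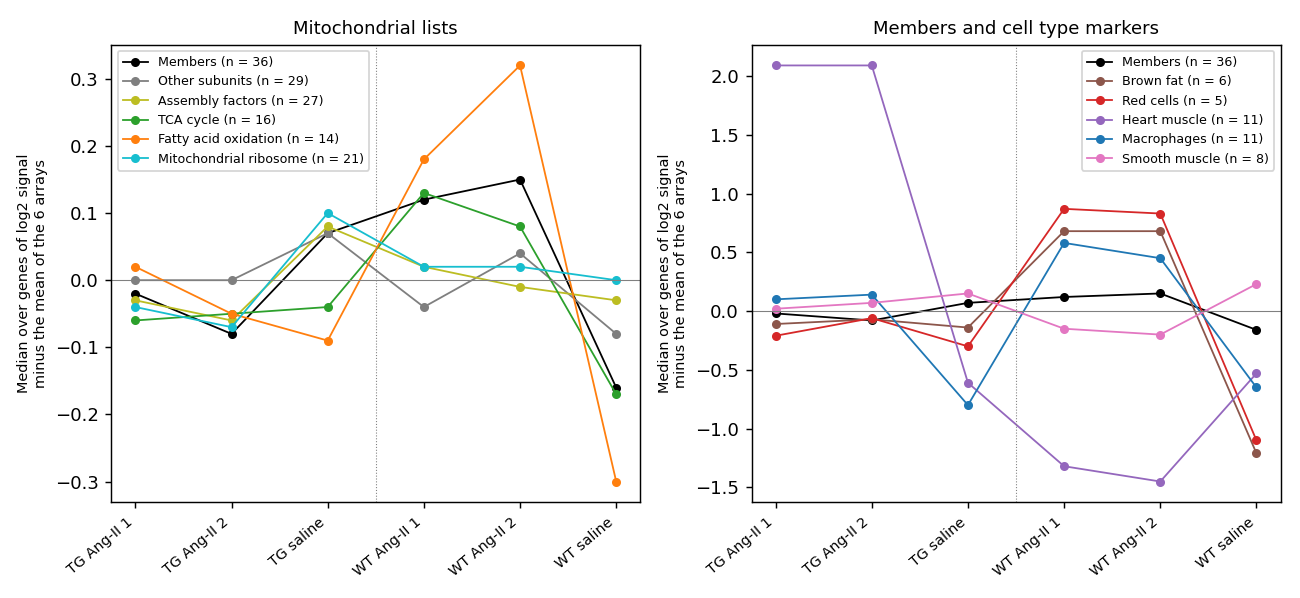
Median over the genes of a list of the log2 signal minus each gene's mean over the 6 arrays (y axes, log2, with different ranges), on each array (x axes), for mitochondrial lists (left) and cell type markers (right). The members lie at -0.02 and -0.08 on the TG Ang-II arrays, 0.07 on TG saline, 0.12 and 0.15 on WT Ang-II and -0.16 on WT saline, while the heart muscle and brown fat markers differ by far more.

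Markers of other tissues moved with these groups, and fewer cells of a type and less RNA per cell cannot be told apart in pooled tissue. Of smooth muscle markers, which define the wall of the labelled tissue, 8 of 8 were detected in every group, with a mean log2 signal of 12.47 to 12.52 on TG Ang-II, 12.11 to 12.15 on WT Ang-II, 12.47 on TG saline and 12.55 on WT saline arrays. Of these 1 rose and 0 fell in TG, and 0 rose and 2 fell in WT, with medians of -0.18 in TG and -0.54 in WT. Brown fat markers had means of 10.20 to 10.22 on TG Ang-II, 11.05 to 11.08 on WT Ang-II, 10.17 on TG saline and 9.25 on WT saline, and 1 of 6 rose in TG and 5 of 6 in WT. As with the members' mean, WT Ang-II was highest and WT saline lowest, and Cox7a1 and Cox8b belong to this list as well. General fat cell markers had 0 rises and 1 fall of 9 in TG and 6 rises in WT, with means of 10.05 to 10.06 on TG Ang-II, 10.57 to 10.60 on WT Ang-II, 9.92 on TG saline and 9.52 on WT saline. Red cell markers, whose cells lack mitochondria when mature, had 0 of 5 calls in TG and 5 rises in WT, with means of 11.09 to 11.16 on TG Ang-II, 12.51 to 12.56 on WT Ang-II, 10.92 on TG saline and 10.28 on WT saline.

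Heart muscle markers went in the opposite direction to the members in WT aorta, with median responses of -1.22 against 0.37. In TG aorta these medians were 3.10 and -0.09, and that of the members lay near the -0.06 of all genes. Means of the heart markers were 10.04 to 10.08 on TG Ang-II, 6.26 to 6.29 on WT Ang-II, 7.30 on TG saline and 7.66 on WT saline. Of these markers 8 of 11 rose in TG while 7 of 11 fell in WT. With WT Ang-II 6 of 11, Myh6, Tnni3, Nppa, Mybpc3, Myl3 and Myl2, were not detected, and in TG Ang-II aorta all 11 were detected. Of skeletal muscle markers, 3 of 10 were measured, and 2 rose in TG. Macrophage markers had 9 rises of 11 in both genotypes, fibroblast markers 4 of 8 in TG and 5 of 8 in WT, and endothelial markers 3 falls of 6 in TG and 1 rise in WT. The part of these tissues in the members' values was not tested.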

How the data were processed

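RNA of thoracic aorta was hybridised to 6 Illumina bead arrays. Per the file headers, the deposited intensity columns hold each probe's mean bead signal on a linear scale, not normalized, beside a count of that probe's beads, with medians of 41 to 43, and a detection p-value. The deposited value table holds log2 values, and its 271686 values equal those computed here within 5e-09. The submitters' processing notes name GenomeStudio 2011.1 and limma 3.22.1 and do not give their roles.

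Here the intensities were background corrected and quantile normalized by neqc (limma 3.58.1 under R 4.3.3, offset 16). On each array 34.0% to 35.5% of probes had a detection p under 0.01, and the 16749 probes that did on at least 2 arrays were kept. Genes were named by the annotation of the platform's probes, updated through RefSeq's table of GRCm38.p6 (34885 probes with 1 symbol, 14523 of them kept). A model of 4 group means was fitted to all 6 arrays (2 residual and 3.75 prior degrees of freedom, prior SD 0.15), with adjustment over the probes kept of each comparison. Where the dimmer group was not well above background, its lowest detected signal gave a bound on the fold. The fit was tested on simulated data.

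The members and lists were chosen with earlier results of these data known. The rule for named genes gave values on every array for each member that passed, for the highest and lowest response per complex in each genotype, for the widest TG minus WT difference under Ang-II, for probes that disagreed by over 0.5 (log2) and for those detected on under 6 arrays. Ppargc1a, Nrf1, Gabpa, Tfam, Esrra, Cox6a2, Cox7a1 and Cox8b were always named. Of the other lists, up to 4 genes that passed were named, or else the highest and lowest. Cox5b, Uqcrc1, Ndufs3, the core subunits of complex I and others in sentences on counts were named after their values were seen. The alternatives were other background corrections, scalings, filters, probes, priors and sets of arrays, and a replicate block. An additive model was added after seeing the data.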

Additional observations from a re-analysis of the deposited data

Results flagged for a closer look

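The median over the members of the interaction, the TG response to Ang-II minus the WT response, was -0.34. It is singled out because the members' median was below saline on both TG Ang-II arrays, at -0.06 and -0.10, and above saline on both WT Ang-II arrays, at 0.33 and 0.32. For all genes the median was -0.05 and -0.06 on the TG arrays and -0.04 on each WT array. The members' TG values thus lay near those of all genes, and their WT values lay above them. The difference between the members' TG and WT medians was not tested, and no single member passed limma's test of the interaction. Each side rests on 1 saline array. On the WT saline array 23 of 36 members were at their lowest, against 19.8% of all genes. Both TG Ang-II arrays lay below the TG saline array for 21 members (46.1% of all genes) and above it for 9 (33.5%). Over 29 other subunits of the same complexes the interaction median was -0.08, with 18 below 0 and 11 above. It was -0.54 over 14 genes of fatty acid oxidation, with 13 below 0, and -0.23 over 21 mitochondrial ribosomal proteins, with 20 below 0.

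Among the genes of the other mitochondrial lists, the responses of 3 differed between genotypes by limma's test of the interaction, which called 124 of 9837 genes in all. It was also called for 9 of 11 heart muscle markers, all above 0. Below 0, it was called for 5 of 5 red cell and 4 of 6 brown fat markers, and Cox8b is itself 1 of these 4. The part of these tissues in the 3 genes was not tested. Cox6a2 had 7.03 with an adjusted p of 0.00592 (0.0436 at most under the alternatives), higher with Ang-II on both TG arrays and lower on both WT arrays, of which 1 detected it. Ckmt2 had 5.03 with an adjusted p of 0.00105 (0.0157 at most), with the same directions. It was not well above background in TG saline or WT Ang-II aorta, so 5.03 is a fitted value and no bound. Cox8b had -1.47 with an adjusted p of 0.0481, which ranged up to 0.179 under the alternatives.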

How the results depend on the processing

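The interaction median of the members lay between -0.43 and -0.32 under all alternatives run. Each of them used the same 2 saline arrays, so this range cannot show how far the median depends on those arrays. Median scaling moved the median of all genes to -0.33 (WT), -0.32 (TG and average), -0.12 (TG minus WT, Ang-II) and -0.14 (TG minus WT, saline). Under it the members' median was 0.04 in WT, -0.40 in TG and -0.15 in the average, so reversed there. It was -0.29 between the genotypes with Ang-II and 0.09 between them with saline. Calls numbered 0 in WT, 2 falls in TG and 6 falls in the average. Of all 9837 genes 1965 fell in WT, 1195 in TG and 4077 in the average. Under the same scaling Sdhc in WT turned to -0.20, and in TG Cox4i1 turned to -0.15 and Ndufa10 to -0.12. Without the second WT array Atp5c1 in WT turned to 0.02 (-0.05 without the first), and without the first TG array Atp5b in TG turned to 0.02 (-0.05 without the second). Quantile normalization without background correction gave 11 calls and a median of 0.31 in WT and 7 calls in the average. It gave 3 calls each between the genotypes with Ang-II and in the interaction. Over all genes it made 1762, 2754, 1103 and 473 calls, in the same order. An offset of 50 gave 5 calls and a median of 0.33 in WT, with 1359 calls over all genes. Without a detection filter there were 0 calls in WT and in the average, and the WT median was 0.29. All genes then had 470 calls in WT and 1113 in the average. Detection on all 6 arrays gave 4 calls in WT and 1 in TG, against 1026 and 656 over all genes. A trended robust prior gave 16 calls in WT, 8 in the average, 6 between the genotypes with Ang-II, 2 between them with saline and 6 in the interaction. Over all genes that prior gave 1833, 2794, 1151, 479 and 499 calls, in the same order. The mean of all probes of a gene gave 2 calls in WT, against 1106 over all genes. Its medians were 0.24 in WT, 0.05 in the average and -0.15 between the genotypes with Ang-II. The additive model gave 0 calls in the average, against 964 over all genes. The cause of these shifts was not tested.

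Leaving out each Ang-II array in turn gave 0 to 1 calls in WT and in the average, 0 in the other comparisons, and medians of 0.32 to 0.37 in WT, -0.10 to -0.06 in TG, 0.11 to 0.18 in the average, -0.23 to -0.17 between the genotypes with Ang-II and -0.43 to -0.32 in the interaction. The replicate numbers did not come with a shared source in the labels, and same-numbered arrays deviated from their group means with a correlation of 0.115. With the replicate block there were 1 call in WT and 2 in the average. The members' medians could not change, since the block was balanced within each Ang-II pair and left the saline arrays out. The block ended the calls of Cox7a1 in TG and of Cox8b in the interaction. A chip block was not run, since no file header used here names the chips. Of the named members, 319 alternative values kept their side of the threshold and their direction, 18 newly passed, 16 no longer passed and 5 reversed. The 319 include alternatives that could not move the fitted difference, such as the deposited values and, in WT, leaving out a TG array. They are therefore no measure of how stable the values are. The median SE of a response, 0.18, and the 2 saline arrays limit what can be seen of differences as small as the members'.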
